A study of Mus musculus with 8 samples.

Results

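The transcription factor p53 slows the cell cycle through a small set of its target genes, and 8 of these are described here in granulocyte-macrophage progenitors (GMP), which make neutrophils and monocytes in the marrow. They are Cdkn1a, Trp53cor1, Ccng1, Gtse1, Btg2, Plk2, Plk3 and Psrc1. They were picked by gene symbol, which matched 8 of 23131 genes in the table, and all 8 reached the mean of 10 normalised counts that was required for testing. A normalised count is the number of reads assigned to a gene, divided by the authors by 1 factor per library.

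The RH2hKO libraries came from 4 C57BL/6 mice that carry floxed Rnaseh2b alleles and the Cre recombinase under Vav control (Rnaseh2b fl/fl VavCre+), which acts in blood-forming cells. The RH2hWT libraries came from 4 littermates with the same floxed alleles and no Cre (Rnaseh2b fl/fl VavCre-), so loss of Rnaseh2b and presence of Cre cannot be told apart. Rnaseh2b encodes a subunit of RNase H2, which takes ribonucleotides out of genomic DNA. GMP were sorted from lineage-negative marrow as Kit-expressing cells with CD34 and high CD16/32, and each library is 1 mouse, named by its replicate number: RH2hKO 5 to 8 and RH2hWT 1 to 4. The labels state no age for the mice.

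In a cell with DNA damage or stalled replication, p53 is stabilised and switches on genes that halt division, among them the gene of p21, an inhibitor of cyclin-dependent kinases. When p21 holds these kinases back, the retinoblastoma family of repressors keeps genes of DNA synthesis and mitosis off. Blood progenitors divide fast, and the p53 response is known to limit their growth after DNA damage. Several p53 targets, Btg2, Plk2 and Plk3 among them, also belong to the genes that cells switch on within minutes of a growth signal or of handling, the immediate early genes.

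Of the 8 genes, 6 rose in RH2hKO and none fell (limma, adjusted over 16688 genes), where 1.40% of all tested genes changed, 1.19% rising and 0.210% falling. The 6 were Cdkn1a, Trp53cor1, Ccng1, Gtse1, Plk2 and Psrc1. On reads recovered from the table the same 6 rose by edgeR, where 1.44% of genes changed (1.26% rising, 0.186% falling), and by DESeq2, where 3.34% did (2.52% rising, 0.827% falling). All 4 RH2hKO libraries stood above all 4 RH2hWT libraries for 5 of the 8, as they did for 3.99% of all tested genes, with 3.42% the other way and 7.41% without overlap in all. The other 3, Btg2, Plk2 and Plk3, were high in RH2hKO 5, 6 and 7 and low in RH2hKO 8. Each of the 8 genes was higher in RH2hKO 5, 6 and 7 than in every RH2hWT library, which held for 7.57% of tested genes. The median log2 fold change of the 8 genes was 1.99, against -0.01 over all tested genes. In such bulk samples, more RNA per cell and more cells that carry the RNA cannot be told apart.

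**Figure D1:**
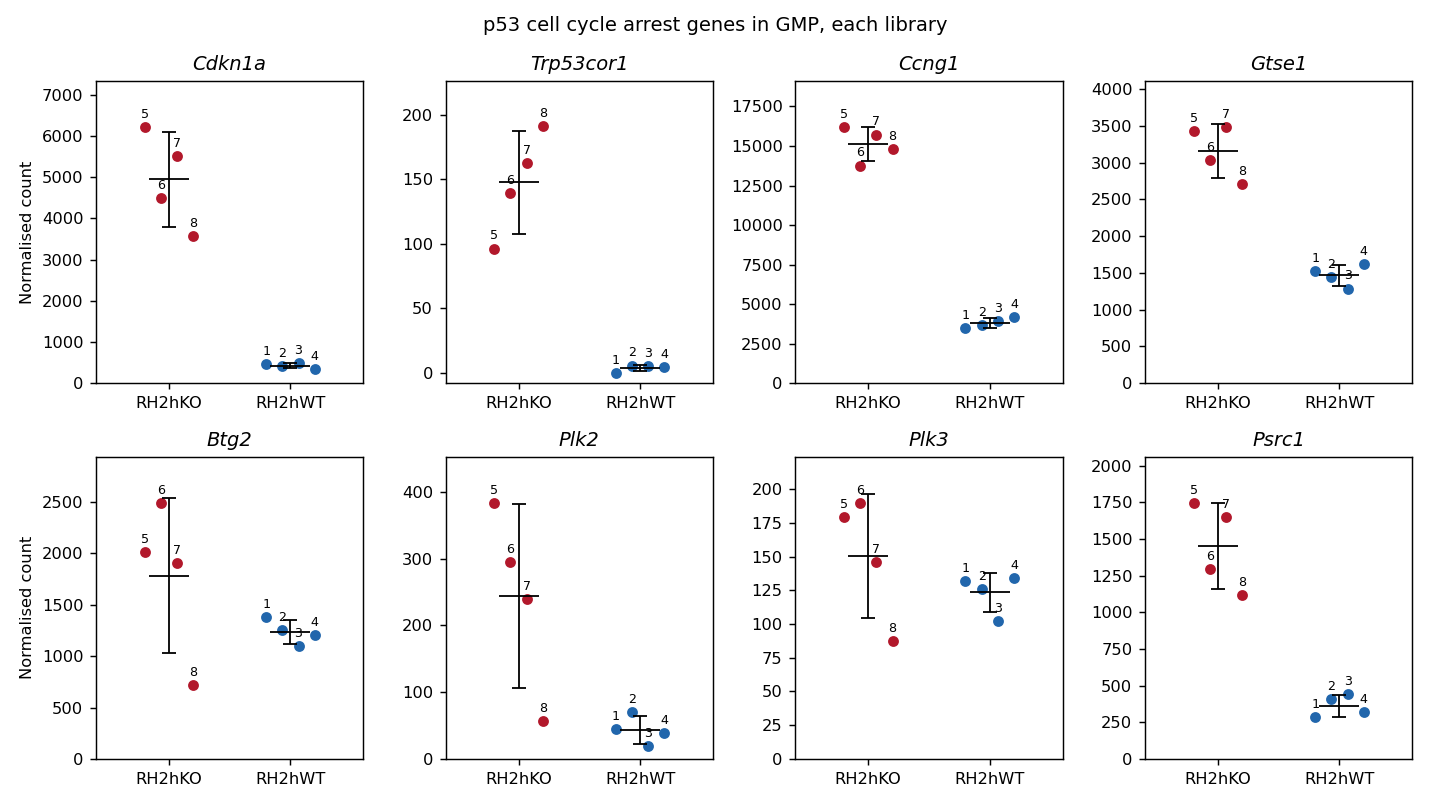
Normalised count (linear axis) of the 8 genes in each library, RH2hKO left in red and RH2hWT right in blue, with the replicate number beside each point and the mean ± SD in black (n = 4 each). Cdkn1a, Trp53cor1, Ccng1, Gtse1 and Psrc1 show no overlap between the groups, and RH2hKO 8 lies within or below the RH2hWT libraries for Plk2, Btg2 and Plk3.

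The libraries held 28352720 to 45655518 reads assigned to genes. Rnaseh2b itself had 75.9 to 127.5 normalised counts in RH2hKO and 1207 to 2470 in RH2hWT, so no library went against its label. None of 15 GMP markers passed the test of limma or of edgeR, 5 had an unadjusted p below 0.05 by limma, and DESeq2 called 2 of them (Cd34 higher, Elane lower). Cd34 also rose without RH2hKO 8 (limma adjusted p = 0.00836) and with the immediate early score as a covariate (limma adjusted p = 0.0492). Without RH2hWT 1 and RH2hKO 8 together, 8.62% of tested genes changed by limma. In that fit Cd34 rose and Elane, Prtn3, Ctsg, Cebpe, Fcgr3 and Ms4a3 fell. Mpo, the myeloperoxidase gene, stood at 685130 to 780350 in RH2hKO and 753421 to 826988 in RH2hWT. Among markers of other cells, 2 of 11 eosinophil, basophil and mast cell genes fell (Ear1 and Ear2). The summed level of the 11 was 9660 to 16365 in RH2hKO 5 to 7, 38299 in RH2hKO 8 and 26220 to 40697 in RH2hWT. By gene, RH2hKO 8 stood above every RH2hWT library for Fcer1a, Ms4a2, Prss34, Mcpt8, Cpa3 and Gata2. It lay within the RH2hWT range for Prg2, Epx and Ear6 and below it for Ear1 and Ear2. Fcer1a was at 245.5 to 489.6 in RH2hKO 5 to 7, 2524.4 in RH2hKO 8 and 245.3 to 462.8 in RH2hWT. Without RH2hKO 8, 9 of these 11 fell (median log2 fold change -1.47, against -0.92 with all libraries), and with the immediate early score as a covariate 4 did. None of 8 later neutrophil markers passed by limma, but 7 had an unadjusted p below 0.05, in both directions. Of the 8 log2 fold changes 3 were positive and 5 negative, and DESeq2 called 2 genes (Lcn2 higher, Ngp lower). The summed level of the 8 markers was 1195 to 3125 in RH2hKO and 1450 to 7324 in RH2hWT. Without RH2hKO 8, 3 of the 8 fell. By limma, 2 of 5 dendritic cell markers rose (Bst2 and Flt3). So did 1 of 7 monocyte and macrophage markers (Ccr2) and 1 of 4 megakaryocyte markers (Vwf). None of 5 stem cell, 7 erythroid or 2 lymphoid markers passed by limma. RH2hKO 8 stood apart on several of these: Gata1, an erythroid transcription factor, was at 62.1 to 82.8 in RH2hKO 5 to 7, 291.6 in RH2hKO 8 and 121.2 to 151.1 in RH2hWT. Ly6a, the gene of the stem cell marker Sca-1, was at 59.2 to 112.9 in RH2hKO 5 to 7, 342.6 in RH2hKO 8 and 42.3 to 81.2 in RH2hWT, and the class II gene H2-Aa at 4.9 to 15.8 in RH2hKO 5 to 7, 159.8 in RH2hKO 8 and 20.4 to 89.9 in RH2hWT. Without RH2hKO 8, 2 of the 7 erythroid markers fell. With all libraries, DESeq2 also called Hbb-bt of the erythroid list and Cx3cr1 of the monocyte list, both higher. The defining marker Siglech of plasmacytoid dendritic cells was at 0 to 3.6 in RH2hKO and 0 in RH2hWT, C1qa of macrophages at 0 to 5.8 in RH2hKO and 0 to 1.9 in RH2hWT, and Cd79a of B cells at 1.0 to 9.0 in RH2hKO and 0 to 6.2 in RH2hWT. Some other genes of the same lists were far above these levels. Bst2 was at 2951.8 to 4203.4 in RH2hKO and 2123.4 to 2653.2 in RH2hWT. Adgre1 was at 409.0 to 733.5 in RH2hKO and 597.3 to 724.5 in RH2hWT. Cd79b was at 1065.4 to 1288.3 in RH2hKO and 945.3 to 1200.5 in RH2hWT. The part of other cell types in the values of the 8 genes was not tested.

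Cdkn1a, the gene of p21, lies on chromosome 17 from 29090976 to 29100727 on the forward strand (mm10). It had 6217.4, 4501.5, 5516.1 and 3583.1 normalised counts in RH2hKO 5 to 8, against 463.2, 422.2, 479.7 and 343.7 in RH2hWT 1 to 4. The lowest RH2hKO library, RH2hKO 8, stood far above every RH2hWT library, at 8.39 times the RH2hWT mean. The fitted rise was 11.4-fold, a log2 fold change of 3.51 ± 0.15 (SE, n = 4 each; limma adjusted p = 1.48e-08). Over the 20 alternatives computed it lay between 3.39 and 3.70 and passed the test in all 20.

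The sequences shown next are the start regions of the 2 genes in which a match to the p53 response element was found, the site through which p53 is known to bind DNA. The 300 bases around the upstream annotated start of Cdkn1a, chr17:29090729-29091028 on the forward strand (RefSeq, GRCm38.p6, the same build as mm10), hold a match to the p53 response element, in capitals, from 29090928 to 29090947. It begins 51 bases before that start and departs from the 20-base p53 consensus, searched as a pair of adjoining 10-base repeats, at 1 position. The same search found a site with 1 mismatch in Gtse1, printed here with its window around the downstream annotated start, chr15:85859696-85859995 on the forward strand, where the capitals run from 85859945 to 85859964.
Cdkn1a upstream window: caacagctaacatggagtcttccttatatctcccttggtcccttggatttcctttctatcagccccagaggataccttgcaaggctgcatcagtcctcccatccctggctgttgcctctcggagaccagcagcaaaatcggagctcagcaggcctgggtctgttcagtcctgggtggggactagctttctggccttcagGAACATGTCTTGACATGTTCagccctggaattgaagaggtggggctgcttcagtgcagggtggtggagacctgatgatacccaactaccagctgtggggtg
Gtse1 downstream window: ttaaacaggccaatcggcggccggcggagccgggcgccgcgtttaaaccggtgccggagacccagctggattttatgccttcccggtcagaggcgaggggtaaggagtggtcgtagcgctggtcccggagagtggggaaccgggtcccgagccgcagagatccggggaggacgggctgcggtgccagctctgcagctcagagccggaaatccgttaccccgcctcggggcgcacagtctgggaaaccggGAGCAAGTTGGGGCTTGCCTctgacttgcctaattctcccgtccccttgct
Such a site, with at most 2 mismatches and both repeat cores kept, was in 2 of the 7 genes that have windows in the RefSeq table, and in 51 of 27025 genes (0.189%) over all 32851 windows. The consensus is its own reverse complement, so the search covers both strands. A match is a description of the letters and not a measured binding site, and windows further from the start were not analysed here. Trp53cor1 had no window in that table.

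Trp53cor1, known as lincRNA-p21, is a long non-coding RNA transcribed away from Cdkn1a on the reverse strand, from 29057430 to 29079179. The 2 genes are 11796 bases apart. In mouse cells it was described as a p53-induced RNA that acts on its neighbour Cdkn1a. Its level was 96.3, 139.2, 162.7 and 191.5 normalised counts in RH2hKO 5 to 8, against 0, 5.7, 5.0 and 4.6 in RH2hWT 1 to 4. All RH2hKO libraries were high, and RH2hKO 8, the lowest for Cdkn1a, was the highest for Trp53cor1. In reads, the RH2hKO libraries held 614 together and the RH2hWT libraries 15, which at equal depth is a ratio of 42.2 (95% exact interval 25.4 to 75.9, covering counting error only). The fitted log2 fold change was 5.22 ± 0.56 (SE, n = 4 each; limma adjusted p = 0.000106). It was 4.56 without RH2hWT 1, the library with no read, and 4.13 with a pseudocount of 5, and the call held in both (adjusted p = 1.02e-05 and 4.5e-06).

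Ccng1 encodes cyclin G1, a cyclin-like protein that binds a phosphatase subunit and acts in the p53-Mdm2 circuit. It lies on chromosome 11 from 40748552 to 40755311 on the reverse strand. Ccng1 had 16195.2, 13768.2, 15728.9 and 14821.1 normalised counts in RH2hKO 5 to 8, against 3484.1, 3653.6, 3943.9 and 4197.3 in RH2hWT 1 to 4. Both groups were tight: the SD was 7.08% of the mean in RH2hKO and 8.25% in RH2hWT, the smallest spread of the 8 genes in each group. RH2hKO 8 stood at 0.973 times the mean of RH2hKO 5 to 7, so the library that was low for other genes was not low here. The log2 fold change was 1.99 ± 0.08 (SE, n = 4 each; limma adjusted p = 7.61e-09), and 1.94 to 2.03 over the alternatives.

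Gtse1 and Psrc1 encode proteins of the microtubules. In human cells GTSE1 also binds p53 and moves it out of the nucleus in the later part of the cycle, and Psrc1, also called DDA3, was described in mouse as a p53-inducible gene and takes part in spindle dynamics. Gtse1 (chromosome 15, 85859745 to 85876573) had 3429.2, 3032.8, 3483.2 and 2704.4 normalised counts in RH2hKO 5 to 8, against 1527.7, 1442.4, 1288.0 and 1621.5 in RH2hWT 1 to 4. Psrc1 (chromosome 3, 108383839 to 108388231) had 1746.6, 1295.5, 1651.4 and 1119.3 in RH2hKO 5 to 8, against 284.5, 408.1, 442.2 and 316.9 in RH2hWT 1 to 4. For both genes RH2hKO 8 was the lowest RH2hKO library and still above the whole RH2hWT group. Gtse1 rose 2.15-fold (limma adjusted p = 2.03e-05) and Psrc1 4.00-fold, with log2 fold changes of 1.10 ± 0.10 and 2.00 ± 0.16 (SE, n = 4 each; limma adjusted p = 8.07e-06 for Psrc1). Both calls held in all 20 alternatives.

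As Gtse1 and Psrc1 act in mitosis, a list of mitotic genes was set beside them. Of 28 listed mitotic genes none passed the test by limma or edgeR, 2 had an unadjusted p below 0.05, and DESeq2 called 1 (Ube2c, higher). Their median fold was 1.05, with 24 log2 fold changes above 0 and 4 below. Without RH2hKO 8 the median log2 fold change of the list was 0.13, and 1 gene rose. Of the 2 with the highest mean, given next, Mki67 had the lowest log2 fold change of the list (-0.10). Top2a, the DNA topoisomerase of dividing cells, averaged 29678 ± 1467 in RH2hKO and 29456 ± 2021 in RH2hWT, and Mki67, the gene of the proliferation marker Ki-67, 18588 ± 2568 in RH2hKO and 19941 ± 2539 in RH2hWT (SD, n = 4 each). No test of Gtse1 or Psrc1 against this list was made.

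Btg2, Plk2 and Plk3 divided the RH2hKO libraries. Btg2 encodes an antiproliferative protein that recruits the machinery that shortens messenger RNA tails, and lies on chromosome 1 from 134075170 to 134079120. It had 2015.7, 2491.6, 1903.8 and 719.9 normalised counts in RH2hKO 5 to 8, against 1384.2, 1254.4, 1099.3 and 1201.7 in RH2hWT 1 to 4. RH2hKO 5, 6 and 7 stood above every RH2hWT library and RH2hKO 8 below every one. With all 8 libraries the log2 fold change was 0.40 ± 0.28 (SE, n = 4 each) and did not pass (limma adjusted p = 0.583). Without RH2hKO 8 it was 0.79 and passed (limma adjusted p = 0.000613), and without RH2hKO 6, the highest library, it was 0.19 (adjusted p = 0.883).

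Plk2, a polo-like kinase with a part in centriole duplication, lies on chromosome 13 from 110395046 to 110400844. It had 383.5, 294.9, 239.6 and 56.8 normalised counts in RH2hKO 5 to 8, against 44.7, 69.9, 18.7 and 38.9 in RH2hWT 1 to 4. RH2hKO 8 fell inside the RH2hWT range, while RH2hKO 5 to 7 stood above it. The log2 fold change was 2.32 ± 0.51 (SE, n = 4 each; limma adjusted p = 0.0381). The call depended on which libraries were included, more than the fold change did. With a log2 fold change of 1.98 to 2.38, the adjusted p was 0.108 to 0.140 without RH2hKO 5, 6 or 7 or RH2hWT 3 or 4, and 0.0532 without RH2hWT 1. It was 0.0607 with quantile normalisation (log2 fold change 2.23) and 0.232 with no intensity trend in limma (2.32). Without RH2hKO 8 the log2 fold change was 2.92 (adjusted p = 0.000217).

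Plk3, a stress-responsive polo-like kinase that phosphorylates p53 in human cells, lies on chromosome 4 from 117128655 to 117133963. It had 179.2, 189.8, 145.9 and 87.6 normalised counts in RH2hKO 5 to 8, against 131.7, 125.6, 102.4 and 134.3 in RH2hWT 1 to 4. The pattern was that of Btg2 at a smaller size, with RH2hKO 5 to 7 above and RH2hKO 8 below all RH2hWT libraries. The log2 fold change was 0.23 ± 0.24 (SE, n = 4 each; limma adjusted p = 0.736), and no alternative brought it past the threshold (adjusted p 0.154 to 0.945). Without RH2hKO 8 it was 0.47 (adjusted p = 0.203), and without RH2hKO 6 it was 0.10 (adjusted p = 0.945).

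RH2hKO 8 was also the library with the lowest immediate early genes. All 17 tested immediate early genes were lower in RH2hKO 8 than in RH2hKO 5, 6 and 7, which held for 31.5% of all tested genes, and 14 of the 17 had their lowest value of all 8 libraries there (16.5% of tested genes). Other lists shared the first trait in part: RH2hKO 8 was the lowest RH2hKO library for 24 of 28 mitotic genes, 6 of 9 family relatives and 16 of 31 other p53 targets, and the lowest of all 8 libraries for 8, 4 and 3 of them in that order. Fos, the gene of an AP-1 transcription factor subunit, had 18525.2, 29456.8, 16219.9 and 6883.2 normalised counts in RH2hKO 5 to 8, against 21037.7, 18839.4, 9235.6 and 16252.6 in RH2hWT 1 to 4. The summed level of the list was 82943 to 128316 in RH2hKO 5 to 7, 39973 in RH2hKO 8 and 51543 to 93129 in RH2hWT. The highest Btg2 and Plk3 values were in RH2hKO 6, which also had the highest value of 12 of the 17 immediate early genes. The highest Plk2 value was in RH2hKO 5, at 383.5 against 294.9 in RH2hKO 6. How many of all tested genes were highest in RH2hKO 6 was not counted. Of the list itself, 1 of 17 rose (Ier5, limma adjusted p = 0.0045) and none fell, with a median log2 fold change of 0.15. Without RH2hKO 8, 3 of the 17 rose and the median was 0.47. A group comparison with the immediate early score as a covariate is given below. The part of the score itself in the values of Btg2, Plk2 and Plk3 was not tested.

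Among the 8 genes, 6 had their lowest RH2hKO value in RH2hKO 8, the exceptions being Ccng1 and Trp53cor1, and among the 199 genes that rose 41.2% had theirs there. The drop differed in size. RH2hKO 8 stood at 0.816, 0.715 and 0.662 times the mean of RH2hKO 5 to 7 for Gtse1, Psrc1 and Cdkn1a, but at 0.510, 0.337 and 0.186 times that mean for Plk3, Btg2 and Plk2. With the immediate early score of each library as a covariate, the same 6 genes rose, where 2.49% of tested genes changed (1.94% rising, 0.545% falling), and the log2 fold changes were 3.48 for Cdkn1a, 1.99 for Ccng1, 1.07 for Gtse1, 1.98 for Psrc1, 5.32 for Trp53cor1 and 2.07 for Plk2. The adjusted p of Plk2 was then 0.000377, while Btg2 (0.25, adjusted p = 0.237) and Plk3 (0.14, adjusted p = 0.775) did not pass. Without RH2hKO 8, 7 of the 8 genes rose, where 3.41% of tested genes changed (2.05% rising, 1.36% falling).

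**Figure D2:**
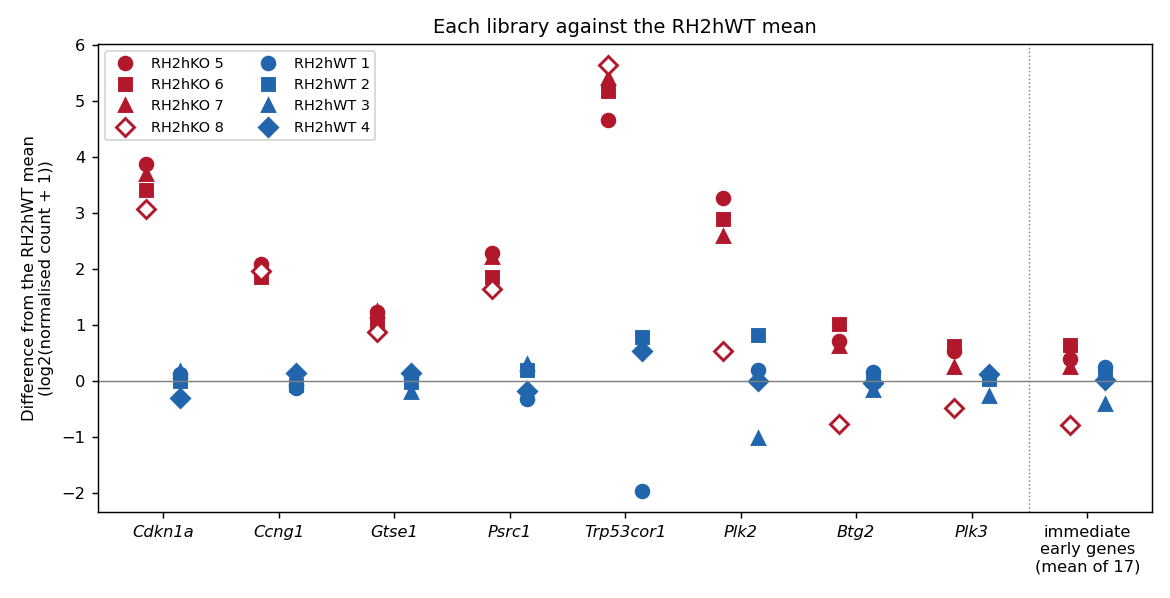
Difference of each library from the RH2hWT mean on the log2(normalised count + 1) scale, for the 8 genes and, at the right, for the mean of 17 immediate early genes; RH2hKO libraries are red and left in each pair, RH2hWT blue and right. RH2hKO 8 (open diamonds) lies with the other RH2hKO libraries for Cdkn1a, Ccng1, Gtse1, Psrc1 and Trp53cor1, near the RH2hWT libraries for Plk2, and below them for Btg2, Plk3 and the immediate early genes.

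**Figure D3:**
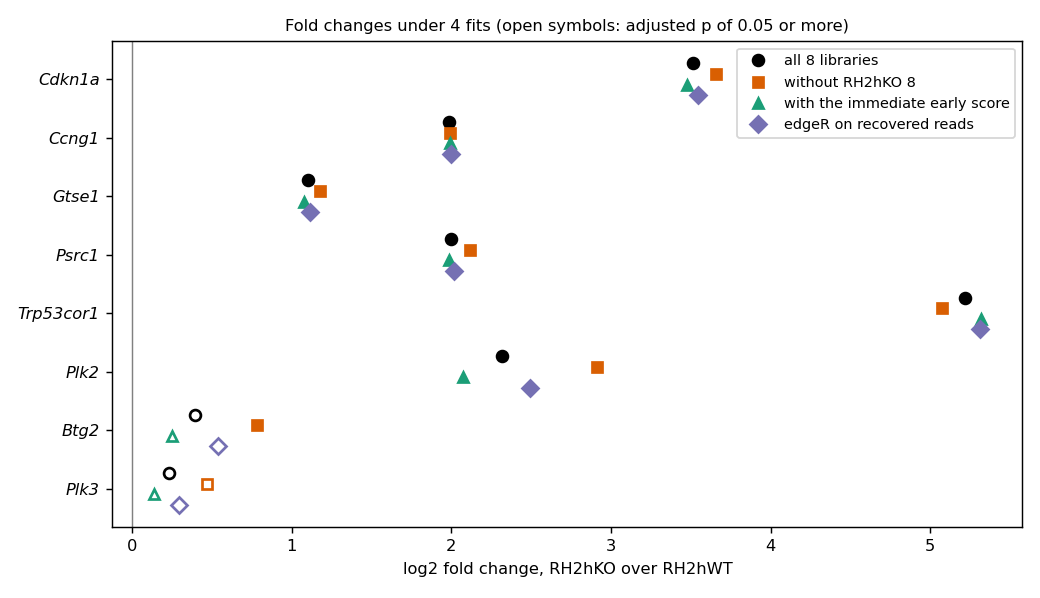
Log2 fold change of RH2hKO over RH2hWT for each gene in 4 fits: limma with all 8 libraries, limma without RH2hKO 8, limma with the immediate early score as a covariate, and edgeR on recovered reads. Filled symbols have an adjusted p below 0.05; Btg2 is filled without RH2hKO 8 alone, and Plk3 is open in all 4.

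A short motif was looked for in the promoter windows after Btg2, Plk2 and Plk3 were seen to be low in RH2hKO 8. The full cAMP response element, TGACGTCA, which CREB and related factors bind in many immediate early genes, was found in Btg2 and Plk2 and in no other of the 7 genes with windows, and in 549 of 27025 genes (2.03%). In Btg2 it begins 166 bases before the annotated start (window chr1:134079106-134079405, reverse strand) and in Plk2 62 bases before it (window chr13:110394794-110395093, forward strand). It is printed in capitals.
Btg2 window: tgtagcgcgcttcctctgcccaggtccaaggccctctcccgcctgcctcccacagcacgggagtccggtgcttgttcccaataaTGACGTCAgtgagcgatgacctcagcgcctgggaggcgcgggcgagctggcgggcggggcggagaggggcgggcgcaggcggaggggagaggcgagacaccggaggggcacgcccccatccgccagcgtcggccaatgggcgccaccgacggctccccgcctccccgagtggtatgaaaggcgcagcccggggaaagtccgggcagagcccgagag
Plk2 window: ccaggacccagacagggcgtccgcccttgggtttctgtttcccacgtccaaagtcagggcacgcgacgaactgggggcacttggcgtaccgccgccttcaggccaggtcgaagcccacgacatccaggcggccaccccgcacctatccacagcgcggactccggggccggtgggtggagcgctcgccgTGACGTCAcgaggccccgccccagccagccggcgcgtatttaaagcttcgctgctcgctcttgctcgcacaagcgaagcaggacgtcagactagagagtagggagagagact
The shorter core TGACG, on either strand and contained in the full element, was in Btg2, Plk2 and Plk3 and in no other of the 7, and in 23.0% of all genes with windows. These letters are a description, and no binding was measured. The share of the immediate early genes with either motif was not counted. Any part of the motifs in the values of RH2hKO 8 was not tested.

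Relatives from the same protein families were set beside Cdkn1a, Ccng1, Btg2, Plk2 and Plk3. Of 11 listed relatives 9 were tested and none passed by limma, edgeR or DESeq2, with 1 at an unadjusted p below 0.05 by limma. Cdkn1b, the gene of the related inhibitor p27, averaged 1613 ± 446 in RH2hKO and 1586 ± 296 in RH2hWT. Ccng2, the gene of cyclin G2, averaged 1228 ± 239.6 in RH2hKO and 1362 ± 210.1 in RH2hWT, and Btg1, of the family of Btg2, 2527 ± 371 in RH2hKO and 2617 ± 198 in RH2hWT (SD, n = 4 each). None of the 3 lay beyond the spread of its libraries. The highest of the relatives, Plk1, the mitotic polo-like kinase, averaged 3298 ± 385 in RH2hKO and 3090.4 ± 457 in RH2hWT, and Tob2, of the same antiproliferative family as Btg2, 3091 ± 484 in RH2hKO and 2874 ± 149 in RH2hWT. Tob1, another member of that family, had the lowest p of the 9, with 633.8, 491.5, 602.4 and 272.4 in RH2hKO 5 to 8 and 332.3, 417.5, 308.6 and 238.1 in RH2hWT 1 to 4. It did not pass with all libraries (limma adjusted p = 0.304) and passed without RH2hKO 8 (adjusted p = 0.0143); it is named after its values were seen.

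Ratios between 2 genes of 1 library, which the library factor cannot change, set 3 of the 8 genes against a relative and Plk3 against Plk2. The Cdkn1a to Cdkn1b ratio was 2.80, 3.24, 3.36 and 2.99 in RH2hKO 5 to 8, against 0.378, 0.263, 0.246 and 0.220 in RH2hWT 1 to 4. The ratio was thus above 1 in every RH2hKO library and below 1 in every RH2hWT library, an 11.4-fold difference. The Ccng1 to Ccng2 ratio was 11.6, 12.1, 10.9 and 15.96 in RH2hKO 5 to 8, against 3.14, 2.77, 2.44 and 2.99 in RH2hWT 1 to 4, a 4.42-fold difference. The Btg2 to Btg1 ratio was 0.679, 1.08, 0.709 and 0.336 in RH2hKO 5 to 8, against 0.545, 0.438, 0.459 and 0.450 in RH2hWT 1 to 4, so that the groups overlapped through RH2hKO 8. The Plk3 to Plk2 ratio was 0.467, 0.644, 0.609 and 1.54 in RH2hKO 5 to 8, against 2.95, 1.80, 5.48 and 3.45 in RH2hWT 1 to 4, and was lower in every RH2hKO library. In an exact two-sided permutation test over the 70 ways of assigning 8 libraries to 2 groups of 4, 3 of the 4 ratios differed (p = 0.0286, the smallest this design allows; 0.0381 adjusted over the 4) and Btg2 to Btg1 did not (exact permutation p = 0.314). The genes were chosen with earlier results of these data known. Cdkn1a and Ccng1 had already shown no overlap between the groups, so the tests of their ratios add no separate support. With any 1 library left out, the unadjusted exact permutation p of Cdkn1a to Cdkn1b and of Ccng1 to Ccng2 stayed at 0.0286. This too is the smallest value possible there. Without RH2hKO 5 or any 1 RH2hWT library the unadjusted exact permutation p of Plk3 to Plk2 was 0.0571. By the adjustment over the 4, its adjusted p was then 0.0762, and that of Cdkn1a to Cdkn1b and of Ccng1 to Ccng2 was 0.0571. Without RH2hKO 8 the adjusted exact permutation p of Btg2 to Btg1 was 0.0286, with a log2 difference of 0.77.

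**Figure D4:**
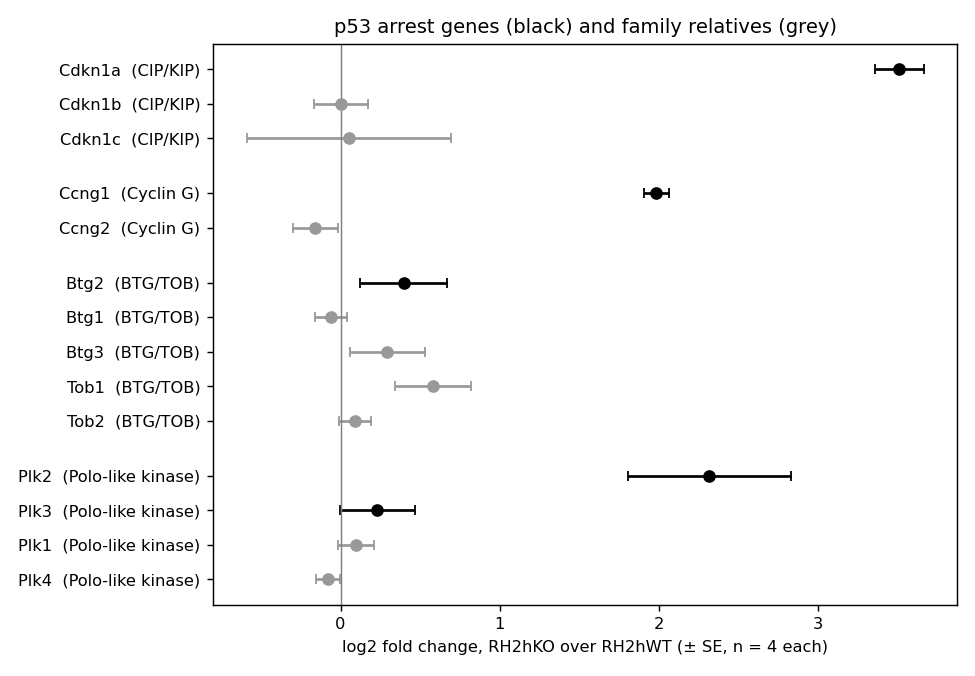
Log2 fold change of RH2hKO over RH2hWT (± SE from limma, n = 4 each) for Cdkn1a, Ccng1, Btg2, Plk2 and Plk3 in black and their tested family relatives in grey, grouped by family. Trp53cor1, Gtse1 and Psrc1, for which no relative was listed, are not shown. Cdkn1a, Ccng1 and Plk2 stand apart from their relatives, while Btg2 and Plk3 lie near theirs.

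Per kilobase of gene length, a scale on which genes can be set side by side, Ccng1 had the highest level in both groups, 4308 ± 305 normalised counts per kb in RH2hKO and 1088 ± 89.8 in RH2hWT (SD, n = 4 each). Cdkn1a ranked 2 in RH2hKO, with 1394 ± 325, and 4 in RH2hWT, with 120.2 ± 17.1. Gtse1 had 1153 ± 133 in RH2hKO and 536 ± 51.6 in RH2hWT, Btg2 649.9 ± 275 in RH2hKO and 450.2 ± 43.2 in RH2hWT, and Psrc1 432 ± 87.8 in RH2hKO and 108 ± 22.1 in RH2hWT. The lowest 3 in both groups were Plk3 (59.5 ± 18.2 in RH2hKO, 48.8 ± 5.74 in RH2hWT), Plk2 (54.3 ± 30.7 in RH2hKO, 9.59 ± 4.70 in RH2hWT) and Trp53cor1 (39.5 ± 10.8 in RH2hKO, 1.02 ± 0.694 in RH2hWT). In RH2hKO the neighbours Cdkn1a and Gtse1, Btg2 and Psrc1, Plk3 and Plk2, and Plk2 and Trp53cor1 overlapped in their libraries. In RH2hWT, Gtse1 overlapped Btg2 and Cdkn1a overlapped Psrc1.

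Other genes of the pathway were looked at by list, where 1.19% of all tested genes rose and 0.210% fell by limma. These lists were chosen with earlier results of these data known. Of 31 tested p53 targets outside the arrest group 16 rose and none fell, with a median fold of 1.57. Phlda3, an inhibitor of AKT signalling, averaged 1442 ± 355 in RH2hKO and 33.5 ± 11.8 in RH2hWT, and Trp53inp1, a stress protein that acts on p53, 1450.1 ± 309.9 in RH2hKO and 271 ± 40.5 in RH2hWT (SD, n = 4 each). Zmat3, an RNA-binding protein, and the pro-apoptotic genes Pmaip1 and Bbc3 were the others of the 5 with the lowest adjusted p, which ran from 1.71e-08 for Phlda3 to 1.12e-06 for Bbc3 (limma). Of p53 and 11 of its regulators 1 rose, Mdm2, the ubiquitin ligase that degrades p53, with 3659.7, 2887.8, 3249.5 and 2846.8 in RH2hKO 5 to 8 and 1987.0, 2067.7, 2291.1 and 2181.1 in RH2hWT 1 to 4 (1.48-fold; limma adjusted p = 0.00428). DESeq2 also called Mdm4, higher, and without RH2hKO 8 limma called 2 of these 12 genes, both higher. Of 25 partners of p21 and members of the repressor complex downstream of it 1 rose by limma, Ccnd1, the gene of cyclin D1. Ccnd1 averaged 1663 ± 405 in RH2hKO and 489 ± 53.3 in RH2hWT (limma adjusted p = 2.8e-05). Of the 25, 9 had an unadjusted limma p below 0.05, and DESeq2 called 3, all higher (Ccnd1, Ccnd2 and Rbl2). Without RH2hKO 8, 2 of the 25 rose and 1 fell by limma. Ccnd1 shares 1100 exon bases with a gene on the other strand, and whether reads were counted by strand is not stated in the sources used, which leaves its level uncertain.

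The genes most like Cdkn1a, Ccng1 and Gtse1 by profile over the 8 libraries were looked up. Likeness is the root mean square difference of log2 values taken against the RH2hWT mean, over 10854 named genes with a mean of at least 50. This measure takes in the size of the rise, so genes near one that rose must have risen by a like amount. The names are therefore a description and no test. Nearest to Cdkn1a were Bbc3 (0.31), Sulf2 (0.36) and Ak1 (0.59), and nearest to Ccng1 were Pmaip1 (0.16), Sesn2 (0.28) and Prrg4 (0.31). Nearest to Gtse1 were Bax (0.13), Dcxr (0.13) and Baiap2 (0.13). Among the 8 genes the closest to Ccng1 was Psrc1 (0.23), and Gtse1 lay at 0.64 from Ccng1. Sulf2 has 154 exon bases in common with the antisense gene Ncoa3, and its level is likewise uncertain. The exons of Cdkn1a, Plk3 and Trp53cor1 overlap other annotated genes whose mean was at most 8.4 normalised counts, where a mean is given.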

How the data were processed

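Per the labels' protocols, polyadenylated RNA of sorted GMP was made into strand-specific libraries, 1 per mouse. GSNAP, featureCounts 2.0.1, DESeq2 1.30.1 and the build mm10 are named in the submitters' processing notes. The sources used here give no annotation release and no strand setting. In the deposited table each signal value is a gene's read count, scaled by the authors with a single factor for each library. Within a tolerance of 0.051, 99.997% of values above 0 came out as whole reads (5 did not), which gave the depths. For pairs of replicates the chi-square over its degrees of freedom was 13.98 to 45.6, so none was a copy.

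Genes whose mean reached 10 were tested with limma 3.58.1 (R 4.3.3), with its intensity trend, on log2 of the normalised count plus a pseudocount of 1. Calls needed an adjusted p (Benjamini-Hochberg) under 0.05. This scale understates the change of low genes. On recovered reads edgeR 4.0.16 called 241 genes and DESeq2 1.42.0 called 558. Ratios used exact permutation tests. Gene starts, exons and overlaps came from GENCODE M21, and lengths from the table. Motifs were searched in RefSeq windows from 250 bases before to 50 after a start.

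The members and lists were chosen with earlier results of these data known. Named were all 8 members, per list up to 5 changed genes with the lowest adjusted p, or else the 2 with the highest mean, and the 3 nearest profiles of 3 members. Fos, Tob1, Gata1, Ly6a, H2-Aa, Fcer1a and the counts for RH2hKO 8 were chosen after their values were seen. The fits were checked on simulated counts.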

Additional observations from a re-analysis of the deposited data

Results flagged for a closer look

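Among 48 groups of 4 values, 3 had 1 sample far from the others, where chance gives about 1 in 20. The Plk3 to Plk2 ratio in RH2hKO was highest in RH2hKO 8, at 1.54 against 0.467 to 0.644 in the other RH2hKO libraries. In RH2hWT, Zmat3 was highest in RH2hWT 1, at 119.9 normalised counts against 48.2 to 51.0 in the others. Also in RH2hWT, Pmaip1 was lowest in RH2hWT 3, at 211.1 against 259.4 to 268.1 in the others.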

How the results depend on the processing

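Of the 8 genes, Cdkn1a, Trp53cor1, Ccng1, Gtse1 and Psrc1 passed in all 20 alternatives, Plk2 in 12, Btg2 in 2 (those without RH2hKO 8) and Plk3 in none; all 8 kept their direction. The number of the 8 that rose was 5 to 7. Over all genes 234 changed (199 higher, 35 lower). DESeq2 gave 558, array weights 1001 (547 higher, 454 lower), the immediate early covariate 415 and no intensity trend 104. Leaving out 1 library gave 135 to 569, and leaving out RH2hWT 1 and RH2hKO 8 together 1440 (651 higher, 789 lower). With 1 library left out, the log2 differences of the ratios were 3.41 to 3.67 for Cdkn1a to Cdkn1b, 2.03 to 2.21 for Ccng1 to Ccng2, 0.21 to 0.77 for Btg2 to Btg1 and -2.48 to -1.85 for Plk3 to Plk2. The p53 site was found in 2 genes with at most 1, 2 or 3 mismatches. Depth limits Trp53cor1 most, with 0 to 6 reads per RH2hWT library. No paired analysis was possible because the groups share no replicate number.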
